A study of Mus musculus with 8 samples.

Results

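The 7 genes described here encode RNA-binding proteins that shorten the life of inflammatory mRNAs: the tristetraprolin family (Zfp36, Zfp36l1 and Zfp36l2), the regnases Zc3h12a and Zc3h12c, and the roquins Rc3h1 and Rc3h2. They were chosen by name, with earlier results of these data known. They are 7 of the 21521 protein-coding genes on chromosomes 1 to 19 and X in the RefSeq table. A RelA peak was counted for a gene when its centre lay inside the gene or within 50 kb of either gene end, and 12 of the 9829 peaks met this rule. RelA (p65), an NF-kB subunit with a transactivation domain, was located by ChIP-seq, which sequences the DNA recovered with an antibody. The cells were primary fibroblasts from C57BL/6 mouse embryos of wild-type genotype. Cells were kept overnight in low serum and then treated with TNF, which activates NF-kB. There were 2 ChIP libraries at 0 h, 2 at 0.5 h and 2 at 3 h of TNF at 10 ng/ml, and 2 input DNA libraries. The values analysed are a single list of peak positions on mm10 with no height, score or sample, so the times were not compared, the depth is unknown and replicates could not be set against each other. All counts below are descriptions of that list, and RNA levels, including those of fibroblast markers, were not measured in it.

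Proteins of the tristetraprolin family bind AU-rich elements in 3′ untranslated regions through a tandem of CCCH zinc fingers and recruit the CCR4-NOT deadenylase. Regnase-1, the product of Zc3h12a, is an endoribonuclease that cuts stem-loops, and the roquins bind related stem-loops and also recruit CCR4-NOT. These proteins limit the output of cytokine genes such as Tnf and Il6, and NF-kB signalling is known to induce Zfp36 and Zc3h12a. The position of RelA peaks around the 7 genes therefore bears on which decay factor genes lie close to RelA-bound sites in these fibroblasts.

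All 7 genes had at least 1 peak by this rule, against 43.2% of all protein-coding genes, a contrast that was not tested. Zc3h12a had 3 peaks. Zfp36, Zfp36l1 and Zc3h12c had 2 each, and Zfp36l2, Rc3h1 and Rc3h2 had 1 each. The median was 2 peaks for the 7 genes and 0 for all protein-coding genes. Each of the 7 lies on a different chromosome, so no peak could be counted for more than 1 of them. Within 10 kb, 5 of the 7 genes had a peak, against 23.1% of all protein-coding genes, and both roquin genes had none. When each peak was given to the protein-coding gene with the nearest end alone, 3 of the 7 genes, Zfp36, Zc3h12a and Zc3h12c, had a peak within 50 kb, against 21.9% of all protein-coding genes. By family, the tristetraprolin genes held 5 peaks, of which 1 was nearest to its own family member. For the regnase genes this was 5 of 5 peaks, and for the roquin genes 0 of 2. The 3 peaks of Zc3h12a among the regnase peaks counted as 1 when peaks within 1 kb were merged. The matching share over all gene-peak pairs was not computed, and no difference between families was tested.

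**Figure D1:**
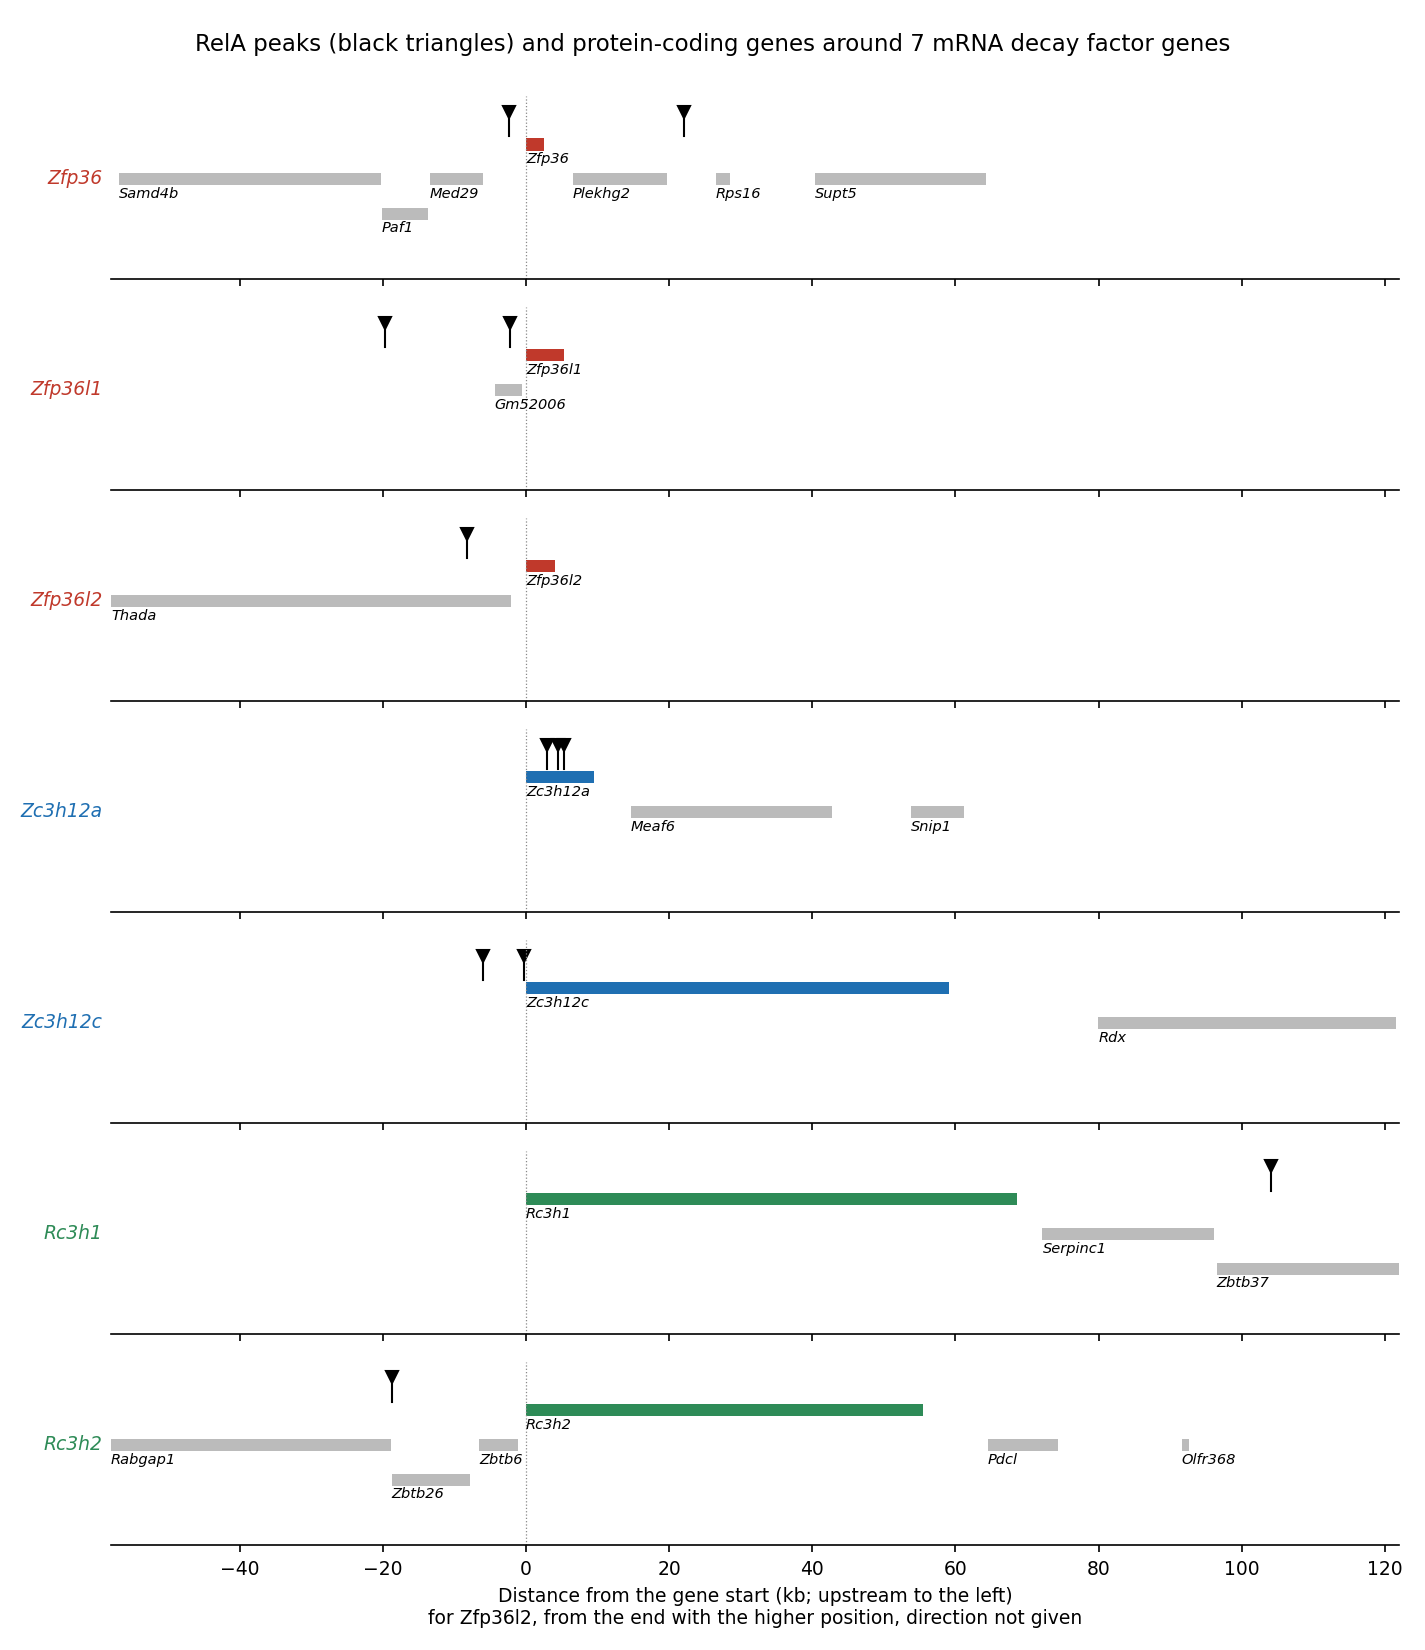
Map of the 7 loci, with distance from the gene start in kb on the horizontal axis and transcription running to the right (for Zfp36l2, distance from the end with the higher position, since no direction was given). Black triangles mark peak centres, coloured bars the 7 genes (red tristetraprolin, blue regnase, green roquin) and grey bars other protein-coding genes that reach into the 50 kb window, cut at the plot's edge; the 3 peaks of Zc3h12a lie inside it, and the peaks of Rc3h1 and Rc3h2 lie at other genes.

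Zfp36 encodes tristetraprolin itself. The gene spans chr7:28376784-28379228 and is 2.45 kb long, on the minus strand. Its nearer peak, chr7:28380804-28382382, was centred 2.37 kb upstream of the start site and was 1579 bp wide. It ranked 29 in width in the whole list, where 0.295% of peaks were at least as wide. The far peak, chr7:28356847-28357459, was 613 bp wide and lay 19.6 kb past the 3′ end, 2.45 kb from Plekhg2. Zfp36 sits among closely spaced genes. The window rule counted its near peak also for 6 other protein-coding genes, of which Med29, a gene for a Mediator subunit, had the closest end at 3.65 kb, and the far peak for 7 others.

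Zfp36l1, a paralogue that binds the same AU-rich elements, also had a wide peak upstream of its start site. The gene spans chr12:80107760-80113013, 5.25 kb on the minus strand. A peak at chr12:80114449-80115996, 1548 bp wide, was centred 2.21 kb upstream of the start site. Its width ranked 35, with 0.356% of peaks at least as wide. It lay inside Gm52006, a gene model listed as protein-coding, whose end was 1.64 kb away and so nearer than that of Zfp36l1. The other peak, chr12:80132334-80133036, was 703 bp wide and was centred 19.7 kb upstream of Zfp36l1. Its centre lay 0.159 kb from the start site of the long noncoding RNA gene 2310015A10Rik. A peak centre from 1 to 5 kb upstream of a start site was found at 2 of the 6 genes with a listed start, Zfp36 and Zfp36l1, against 1.95% of 17274 protein-coding genes with one. That distance range was set after their positions had been seen.

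The promoters of Zfp36 and Zfp36l1 are shown because the wide peaks lay upstream of them and did not reach them. The windows are the 250 bases before the start site, RefSeq sequence of GRCm38.p6 on the minus strand, chr7:28379229-28379478 and chr12:80113014-80113263. Capitals mark a CArG box in Zfp36, the element bound by serum response factor, and an AP-1 match (TGANTCA) and a TATA box (TATAAA) in Zfp36l1.
Zfp36: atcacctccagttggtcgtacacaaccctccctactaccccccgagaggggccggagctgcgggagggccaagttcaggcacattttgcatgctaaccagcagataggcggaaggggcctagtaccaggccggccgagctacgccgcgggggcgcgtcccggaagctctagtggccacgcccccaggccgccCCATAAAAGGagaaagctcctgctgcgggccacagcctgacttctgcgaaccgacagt
Zfp36l1: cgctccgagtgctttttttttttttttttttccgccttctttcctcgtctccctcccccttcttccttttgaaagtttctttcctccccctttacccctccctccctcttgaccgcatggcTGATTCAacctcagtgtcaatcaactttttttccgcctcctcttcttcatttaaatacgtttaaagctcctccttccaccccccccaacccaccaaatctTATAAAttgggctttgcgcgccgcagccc
The near peak of Zfp36 began 1326 bp beyond its window and that of Zfp36l1 1186 bp beyond its own. Both strands of these windows were searched for the kappaB decamer, a consensus of the sites that NF-kB dimers bind, and neither window held it. A looser form, GGG and CC with any 5 bases between them, includes every decamer match. It gave 3 matches in Zfp36, among them an overlapping pair on opposite strands, and 0 in Zfp36l1. Of 32841 promoter windows of this length, 3.90% held the decamer, 45.8% the looser form, 1.47% a CArG box, 6.75% an AP-1 match and 12.4% the TATA box. The CArG box of Zfp36 ended 49 bases before the start site, and the TATA box of Zfp36l1 ended 24 bases before it.

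Zfp36l2, the remaining gene of the family, spans chr17:84183924-84187947 and is 4.02 kb long. It had 1 peak, chr17:84195852-84196649, 798 bp wide and centred 8.30 kb from its higher end. The peak lay inside Thada and inside the long noncoding RNA gene Gm36279. The end of Thada was 6.19 kb away, nearer than that of Zfp36l2. Of all peaks, 27.9% were at least as wide. Across the family, the nearest peak thus lay 2.21 to 8.30 kb from the gene, in each case outside it and on the side of the higher position.

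Zc3h12a encodes regnase-1 and spans chr4:125118414-125127881, 9.47 kb on the minus strand. It was the one gene of the 7 with a peak centre inside it, against 14.6% of all protein-coding genes. Its peaks, chr4:125124590-125125223, chr4:125123148-125123694 and chr4:125122319-125122944, were 634, 547 and 626 bp wide. They were centred 2.98, 4.46 and 5.25 kb downstream of the start site. The gaps between neighbouring edges were 895 and 203 bp, so all 3 counted as 1 peak when peaks within 1 kb of each other were merged. Each was narrower than the median of the whole list, 687 bp. Of 7674 protein-coding genes under 10 kb long, Zc3h12a alone held 3 or more peak centres, a length limit chosen after its value had been seen. Among all protein-coding genes, 7.36% had at least as many peaks by the 50 kb rule. Per length searched, Zc3h12a had 2.74 peaks per 100 kb, a density that 2.35% of protein-coding genes reached. All 3 peaks were nearer to an end of Zc3h12a than to that of any other protein-coding gene. Its closest neighbour was Meaf6, a gene for a histone acetyltransferase subunit, whose end lay 9.39 to 11.7 kb from the peak centres.

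Zc3h12c, a paralogue with the same ribonuclease fold, had the peak closest to a gene end among the 7. The gene spans chr9:52109569-52168730, 59.2 kb on the minus strand. The peak at chr9:52168796-52169284 was centred 0.310 kb beyond the 5′ gene end and 0.634 kb upstream of the nearest start site in the promoter table. Its edge lay 66 bp from the gene. A centre from 0 to 1 kb upstream of a start site was found at 1 of the 6 genes with a listed start, against 3.64% of protein-coding genes with one. Of all protein-coding genes, 3.53% had a peak centre as near to an end, and 6.34% had one within 1 kb. The second peak, chr9:52174544-52175055, lay 6.07 kb beyond the same end, 5759 bp from centre to centre. These were the narrowest of the 12 peaks, at 489 and 512 bp, and 93.4% and 90.3% of the list was at least as wide. No other protein-coding gene held either peak in its window, so Zc3h12c was the one gene of the 7 whose peaks were all unshared. Being unshared is common in the whole list, where 39.6% of peaks were counted for exactly 1 protein-coding gene. The median was 3 protein-coding genes per peak for the 12 peaks and 1 for the whole list. The whole list includes 2227 peaks counted for no gene, which the 12 exclude by the rule, and this contrast was not tested. Neither promoter window of Zc3h12c held the kappaB decamer, and both held the looser form.

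The roquin genes are long, and neither held a peak inside or within 10 kb. Rc3h1, which encodes roquin-1, spans chr1:160906411-160974976 on the plus strand. Its single peak, chr1:161010282-161010868, was 587 bp wide and lay 35.6 kb past the 3′ end and 104 kb from the start site. The peak was inside Zbtb37, a zinc finger gene whose end was 7.65 kb away. This was the peak of the 12 closest to the 50 kb limit, and the next peak beyond the limit was also at Rc3h1, at 50.7 kb and inside Zbtb37. Counted from start sites, 5 of the 6 genes with a listed start had a peak within 50 kb, against 35.4% of protein-coding genes, and Rc3h1 was the exception.

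Rc3h2, which encodes roquin-2, spans chr2:37368861-37424370 on the minus strand. Its peak, chr2:37442675-37443678, was 1004 bp wide, and 8.50% of the list was at least as wide. The centre lay 18.8 kb from the gene and 20.3 kb upstream of the listed start site. It stood 0.004 kb from the end of Zbtb26 and 0.087 kb from that of Rabgap1, which are divergently transcribed. Zbtb26 encodes a zinc finger protein and Rabgap1 a GTPase-activating protein for Rab proteins. The peak also fell in the window of Zbtb6, at 12.3 kb. Of the 12 peaks, it and the far peak of Zfp36l1 were those that overlapped a listed promoter.

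The 112 bases between the start sites of Zbtb26 and Rabgap1 are shown because they lie wholly under the Rc3h2 peak. The stretch is chr2:37443173-37443284, GRCm38.p6 plus strand from RefSeq, and capitals mark a kappaB decamer.
Zbtb26-Rabgap1: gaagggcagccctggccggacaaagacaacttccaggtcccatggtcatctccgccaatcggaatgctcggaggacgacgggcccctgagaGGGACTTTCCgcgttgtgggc
The decamer occupied chr2:37443264-37443273, centred 92 bp from the peak centre. It ended 12 bases before the listed Rabgap1 start site, chr2:37443285. By its RefSeq gene limits, however, Rabgap1 begins at chr2:37443263, so the decamer lay inside the gene by those limits. Of promoter windows that overlapped any peak of the list, 277 of 1323 (20.9%) held a decamer, and of the rest 3.19% did. The promoter of 2310015A10Rik, under the far peak of Zfp36l1, held none. None of the 7 promoter windows of the 6 listed genes held one either, and the looser form was present in 6 windows of 5 genes. The 6 genes exclude Zfp36l2, for which no promoter sequence was used here. No sequence was read for the other 10 peaks.

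**Figure D2:**
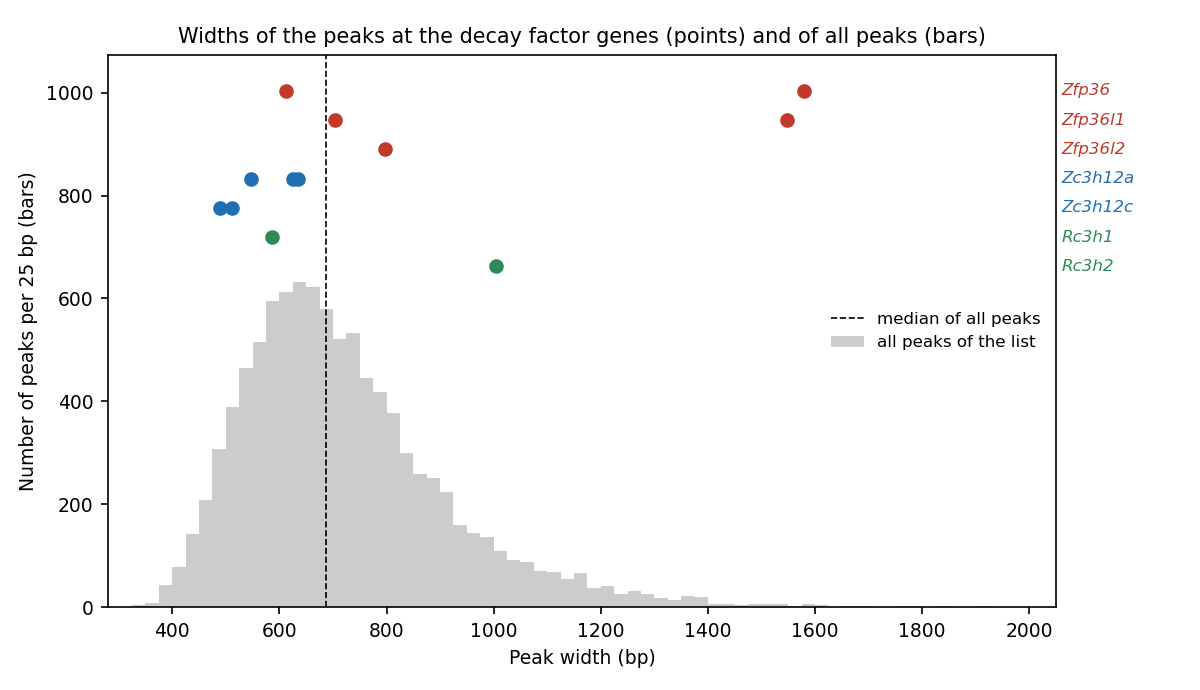
Widths of the 12 peaks (points, 1 row per gene; red tristetraprolin, blue regnase, green roquin) above the histogram of all peaks in the list (grey bars, number per 25 bp), with the median of all peaks as a dashed line. The near peaks of Zfp36 and Zfp36l1, at 1579 and 1548 bp, stand apart from the others, and every regnase peak lies below the median.

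In width, 5 of the 12 peaks were at or above the list's median of 687 bp and 7 were below it. The median of the 12 was 630 bp. Tristetraprolin peaks ran from 613 to 1579 bp and regnase peaks from 489 to 634 bp, so these ranges overlapped, and the roquin peaks were 587 and 1004 bp. The 2 wide peaks belong to the 47 of the list (0.478%) that reached 1500 bp, a limit that was not planned. With the peaks at or above the median width alone, 4 of the 7 genes kept a peak, against 28.5% of all protein-coding genes. Zc3h12a, Zc3h12c and Rc3h1 were left without one.

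**Figure D3:**
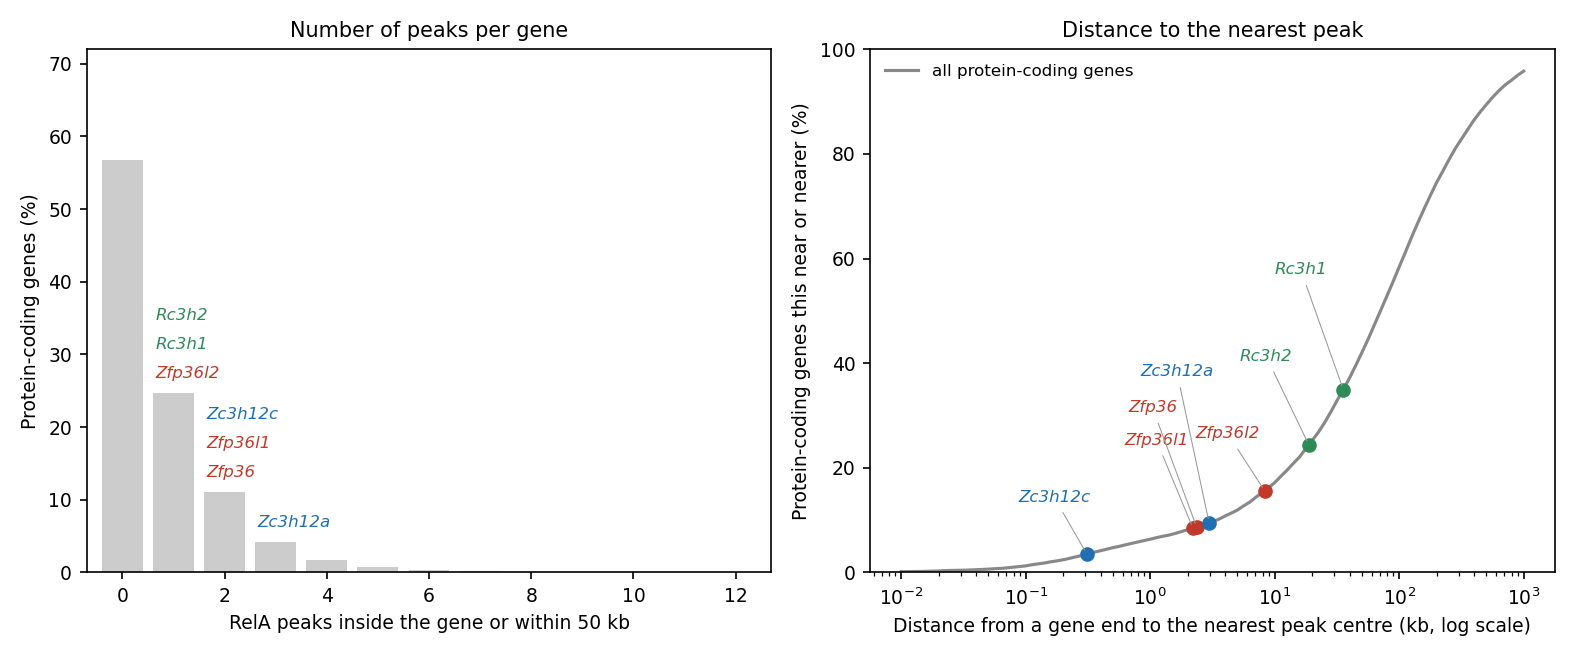
Left, share of protein-coding genes (%) by number of peaks inside the gene or within 50 kb, with the 7 genes named above the bar they belong to. Right, cumulative share of protein-coding genes (%) by distance from a gene end to the nearest peak centre (kb, log axis), with the 7 genes as points on the curve, from Zc3h12c at 0.310 kb to Rc3h1 at 35.6 kb (red tristetraprolin, blue regnase, green roquin).

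Ordered by distance from a gene end to the nearest peak centre, the genes ran from Zc3h12c (0.310 kb) through Zfp36l1 (2.21 kb), Zfp36 (2.37 kb), Zc3h12a (2.98 kb), Zfp36l2 (8.30 kb) and Rc3h2 (18.8 kb) to Rc3h1 (35.6 kb). The median was 2.98 kb for the 7 and 70.8 kb for all protein-coding genes. By density, the values per 100 kb searched were 2.74 for Zc3h12a, 1.95 for Zfp36, 1.9 for Zfp36l1, 1.26 for Zc3h12c, 0.961 for Zfp36l2, 0.643 for Rc3h2 and 0.593 for Rc3h1. The mean over all protein-coding genes was 0.521 and their median 0. The roquin genes thus stood near that mean, with 36.3% and 37.8% of protein-coding genes at least as dense as Rc3h2 and Rc3h1. The first place of Zc3h12a depends on how peaks were split. With peaks within 1 kb merged, it had 1 peak, while Zfp36, Zfp36l1 and Zc3h12c kept 2 each. Densities were not recomputed after merging.

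Genes that work with the 7 decay factors were listed by role. Of 6 family relatives, 3 had a peak by the 50 kb rule (43.2% of all protein-coding genes did) and 1 had a peak within 10 kb, N4bp1, which encodes a related ribonuclease and was named after its value was seen. Zfp36l3 and Zc3h12b, both on chromosome X, and Zc3h12d had none within 50 kb. The relatives held 4 gene-peak pairs from 3 distinct peaks, so 1 peak was shared. Of 16 genes for CCR4-NOT subunits and their Tob and Btg adaptors, 4 had a peak (25%), and the median distance to a peak was 89.8 kb. The exception within 1 kb was Btg2, an antiproliferative adaptor gene, at 0.021 kb. Of 23 genes for other deadenylation, decapping and exonuclease factors, 14 had a peak (60.9%), with the exosome genes Exosc10 (0.041 kb) and Exosc7 (0.130 kb) and the deadenylase gene Pan2 (0.113 kb) the closest. The CCR4-NOT count depended on the window: 2 of the 16 genes had a peak within 10 kb (23.1% of all protein-coding genes did), and 9 of the 16 within 100 kb (58.7%). No difference between these lists was tested.

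**Figure D4:**
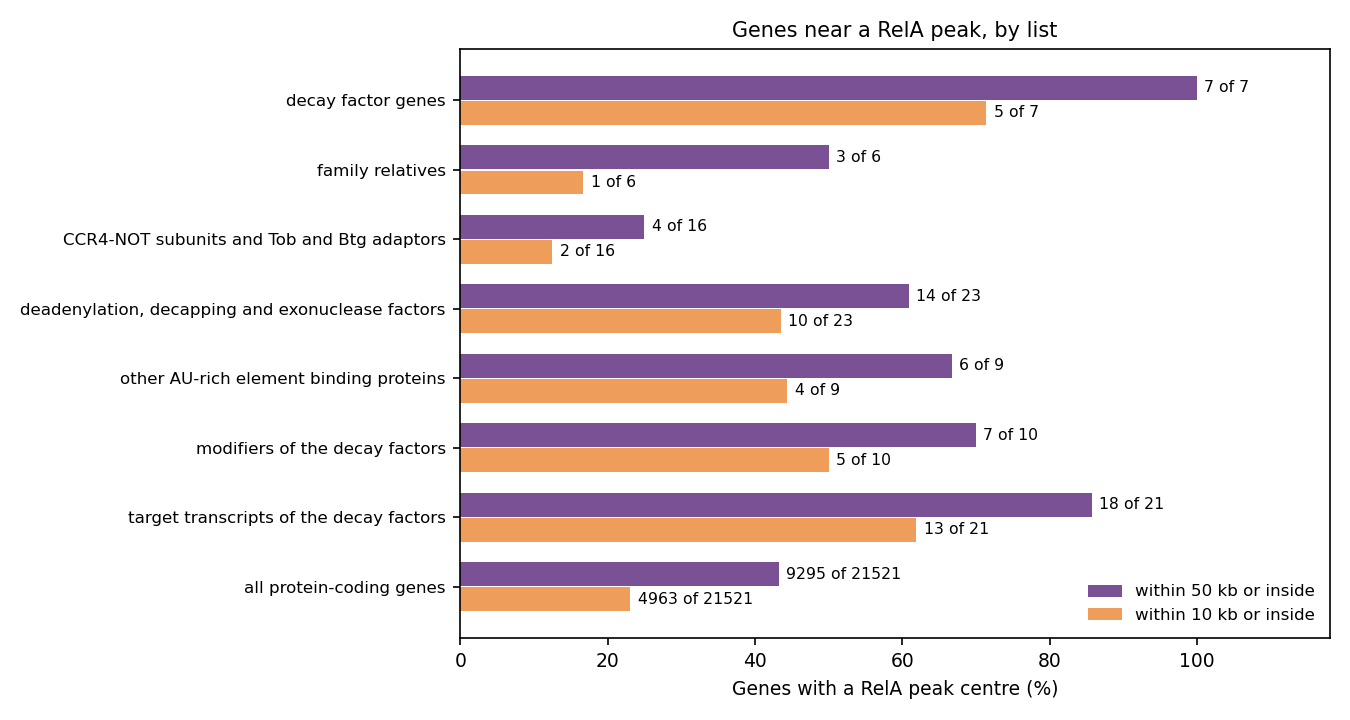
Share of genes (%) with a peak centre inside the gene or within 50 kb (purple) and within 10 kb (orange), for the 7 decay factor genes, the 6 lists around them and all protein-coding genes, with the counts beside each bar. The 7 genes reach 7 of 7 and 5 of 7, and the CCR4-NOT list 4 of 16 and 2 of 16.

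Of 9 genes for other AU-rich element binding proteins, 6 had a peak (66.7%), beside 43.2% of all protein-coding genes by the same 50 kb rule. Tial1, whose product represses translation in stress granules, had one at 0.107 kb. Arid5a, which encodes a protein that protects Il6 mRNA from regnase-1, had one at 0.299 kb. These AU-rich element binding protein genes held 12 gene-peak pairs from 11 distinct peaks. Of 10 genes for enzymes and adaptors that act on the decay factors, 7 had a peak (70.0%), with the adaptor gene Bcl10 at 0.232 kb. Bcl10 works with the protease MALT1, which cleaves regnase-1 and the roquins. Of 21 genes whose transcripts are known targets of the decay factors, 18 had a peak (85.7%) and the median distance was 2.32 kb, with Il6 (0.015 kb), Nfkbiz (0.031 kb) and Rel (0.134 kb) the closest. The target genes held 44 gene-peak pairs from 40 distinct peaks, since neighbours shared some. The list was written with earlier results of these data known, and many targets are known NF-kB genes, so this share carries no independent weight.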

How the data were processed

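Cells were fixed with disuccinimidyl glutarate and formaldehyde before sonication and precipitation with a p65 antibody, per the labels' protocols, and fixation by both can retain proteins that reach DNA through partners. The authors deposited 1 list of peaks with 3 columns (chromosome, start, end). The submitters' processing notes name the mm10 build and the tools MACS2, deepTools, Picard 1.13, SAMtools, Bowtie2 2.3 and cutadapt 1.9.1. What each tool did, the threshold for a peak, how input was used and whether libraries were pooled is not given in the sources used here.

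Starts were converted to positions counted from 1, and a peak was placed by its midpoint. Genes came from RefSeq GRCm38.p6, the assembly mm10 names, and 345 genes on scaffolds were left out, as were 6 unplaced peaks except in widths. Strand and start sites came from the RefSeq promoter table, with 250 bases before each start searched on both strands. Code was Python 3.11.15 with pandas 2.3.3, tested with 200 planted peaks. The members and lists were chosen with earlier results of these data known, so no test was run. Named list genes are the up to 3 closest with a peak centre within 1 kb of an end. The exceptions are those named for a missing peak and N4bp1, Mapkapk2 and Mapkapk3, named after their values were seen. The comparison of times planned for values per sample was not run.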

Additional observations from a re-analysis of the deposited data

How the results depend on the processing

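All 7 genes had a peak with a 100 kb window or with any overlap in place of the centre, as did 58.7% and 43.3% of all protein-coding genes, and 6 had one at 25 kb (31.5%). With the gene body alone, 1 gene and 3 peaks were counted (14.6% of all protein-coding genes). With the nearest gene end only, the counts were 3 genes and 6 peaks (21.9%), and with the wider peaks only, 4 genes and 5 peaks (28.5%). With 10 kb, 5 genes had a peak (23.1%). The 12 peaks became 8 at 10 kb, 11 at 25 kb, 18 at 100 kb and 10 after merging. Of the 85 listed genes, 52 had a peak by the 50 kb rule (43.2% of all protein-coding genes did) and 35 at 10 kb (23.1%). Counting from start sites, added after seeing the data, gave 5 of the 6 genes with a listed start (35.4% of protein-coding genes with one). For single genes and single lists, 59 of the alternative counts stayed within 1.5 times the value reported and 27 did not. No paired analysis was possible because the peak list carries no value per sample, and leaving out libraries was not possible for the same reason. With no depth given, a gene without a listed peak is not shown to lack RelA.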

Other observations

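Beyond 50 kb, 6 further peaks lay within 100 kb of the 7 genes. Zfp36l2 had peaks at 71.5 kb (899 bp wide) and 82.0 kb (438 bp wide), the second again inside Thada. Zfp36l1 had one at 85.1 kb (582 bp wide). For this peak and for the 71.5 kb peak of Zfp36l2, no other protein-coding gene end was nearer. Zc3h12c had peaks at 61.6 kb (963 bp wide), inside the cytoskeletal linker gene Rdx, and at 96.9 kb (717 bp wide). Rc3h1 had the one at 50.7 kb (723 bp wide) named above.

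Among the genes for partners of the decay factors, Btg2 had 4 peaks within 50 kb, or 3.84 per 100 kb searched, a density above that of each of the 7 decay factor genes. The p38-activated kinase genes Mapkapk2 and Mapkapk3, whose products phosphorylate tristetraprolin, had 3 peaks each, of which 2 lay inside each gene. These genes were named after their values were seen.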
